A study of Mus musculus with 1989 samples.

Results

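The late rearranging DP cells described here were 170 of the 1993 thymocytes in 1 scRNA-seq library, or 8.53% of the library with an exact binomial 95% interval from 7.34% to 9.84%. They were chosen by their own measured values: among the 715 cells with a value of 0 for the proliferation genes Mki67 and Top2a and a value above 1 for the CD8 chain gene Cd8b1, they were the 170 with the highest mean of Rag1, Arpp21, Mier1 and Rmnd5a. The levels of these 7 genes are therefore a description of the choice and not a result. The library was made from total thymus cells of C57BL/6 mice, labelled male and 7 weeks old, with no treatment and no genetic change given for any group, and the sources name no separate animals, so it counts as 1 sample. Thymocytes sorted as DN, DP, CD4 or CD8 were also profiled by scATAC-seq, and these 542 cells had no part in the choice. Intervals in the text cover counting error only, and no p-value or standard error was computed.

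DP thymocytes carry both CD4 and CD8. The first of them, the DP blasts, still divide after β-selection, and the cells then leave the cell cycle. In these resting DP cells the RAG1 and RAG2 proteins cut the Tcra locus and the ends are joined again, round after round, until the cell makes a TCR that is selected or the cell dies. The Trdc gene lies inside the Tcra locus and is deleted from a chromosome when a Vα segment is joined to a Jα segment. Positive selection is known to shut off the recombinase and to turn on genes such as Cd69 and Itm2a. Of the 4 ranking genes, Rag1 encodes the cutting subunit of the recombinase, Arpp21 an RNA-binding protein, Mier1 a transcriptional regulator that recruits histone deacetylases, and Rmnd5a the RING subunit of the CTLH ubiquitin ligase.

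Sequences are shown for the elements to which the results below return. The Rag1 promoter and an internal Arpp21 promoter lie under regions whose accessibility was measured by stage, and 3 miRNAs are hosted by genes that were high in these cells. Promoters run from 250 bases before to 50 bases after a RefSeq start on GRCm38.p6. The Rag1 window is chr2:101649483-101649782 and the Arpp21 window chr9:112217302-112217601, both on the minus strand. Capitals mark CAGCTG and CAGGTG, searched on both strands (CACCTG is CAGGTG read on the other strand), which are E-box letters of the kind bound by E proteins such as those encoded by Tcf3 and Tcf12.
Rag1 promoter: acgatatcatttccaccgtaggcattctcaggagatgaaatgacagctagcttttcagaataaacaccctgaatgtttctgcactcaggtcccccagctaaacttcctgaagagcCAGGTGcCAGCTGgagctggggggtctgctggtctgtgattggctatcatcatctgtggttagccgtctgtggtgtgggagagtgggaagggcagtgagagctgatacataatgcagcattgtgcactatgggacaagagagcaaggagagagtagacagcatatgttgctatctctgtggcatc
Arpp21 internal promoter: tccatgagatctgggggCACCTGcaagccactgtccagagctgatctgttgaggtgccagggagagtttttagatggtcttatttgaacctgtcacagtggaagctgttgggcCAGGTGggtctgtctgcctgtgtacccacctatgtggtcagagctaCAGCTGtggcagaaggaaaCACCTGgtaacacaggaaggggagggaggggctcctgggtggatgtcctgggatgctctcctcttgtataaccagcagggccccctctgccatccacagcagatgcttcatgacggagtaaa
The Rag1 window held 1 CAGCTG and 1 CAGGTG, side by side, and the Arpp21 window held 1 CAGCTG and 3 CAGGTG. Among 32851 promoter windows of the same length, 16.3% held CAGCTG and 20.2% held CAGGTG. Neither was in the 2 Mier1 windows or the Rag2 window, and the Rmnd5a window held 1 CAGCTG. Of the 9 Arpp21 windows 7 held at least 1, but several of these overlap and share the same copies. Among the 9, the window printed above held the most copies. AGGTCA, also searched but not marked, was in the Rag2 window, 1 Mier1 window and 1 Arpp21 window. It was in neither printed window nor the Rmnd5a window, and in 16.3% of all windows. A match is a description of the sequence and says nothing of binding.

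The mature miRNAs are given with the seed, bases 2 to 8, in capitals. miR-181a and miR-181b are encoded on chromosome 1 at 137966468 to 137966490 and 137966650 to 137966673 of GRCm38.p6, inside the annotated span of the non-coding gene Gm4258 (chr1:137898595-138000384, plus strand). They share the seed ACAUUCA. miR-128 from Mir128-2 is encoded at 112118644 to 112118664 of chromosome 9, inside Arpp21 and on its strand.
miR-181a-5p: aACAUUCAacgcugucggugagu
miR-181b-5p: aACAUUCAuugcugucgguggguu
miR-128-3p: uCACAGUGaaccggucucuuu
The miRNAs themselves were not measured, and the values below are those of the host genes.

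Values are the deposited log2 values, in which 0 means that a gene was not seen in a cell. The mean of the 4 ranking genes ran from 1.89 to 3.55 in the late rearranging cells, with a median of 2.36. At the boundary the cells ran on without a gap, from 1.89 to 1.92 in the last 10 cells inside and from 1.84 to 1.88 in the first 10 outside. Of the 170 cells, 149 had all 4 genes above 0 and 21 had 3 of them. Rag1 had a mean of 2.64 ± 0.94 (SD over 170 cells), Arpp21 of 2.60 ± 0.85, Mier1 of 2.25 ± 1.02 and Rmnd5a of 2.21 ± 0.98. To describe how far the 4 genes went together, each was left out in turn and the cells were chosen on the remaining 3.

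Each left-out gene was higher in the cells chosen without it than in the 545 remaining cells. Rag1 had a mean of 2.17 ± 1.22 (SD) against 0.90 ± 1.08, Arpp21 of 2.15 ± 1.10 against 0.97 ± 1.15, Mier1 of 1.90 ± 1.18 against 0.99 ± 0.99 and Rmnd5a of 1.80 ± 1.11 against 0.85 ± 1.01. The SDs overlapped for all 4 genes. Between 140 and 148 of the 170 cells stayed in the choice, so these values are no support for it.

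**Figure D1:**
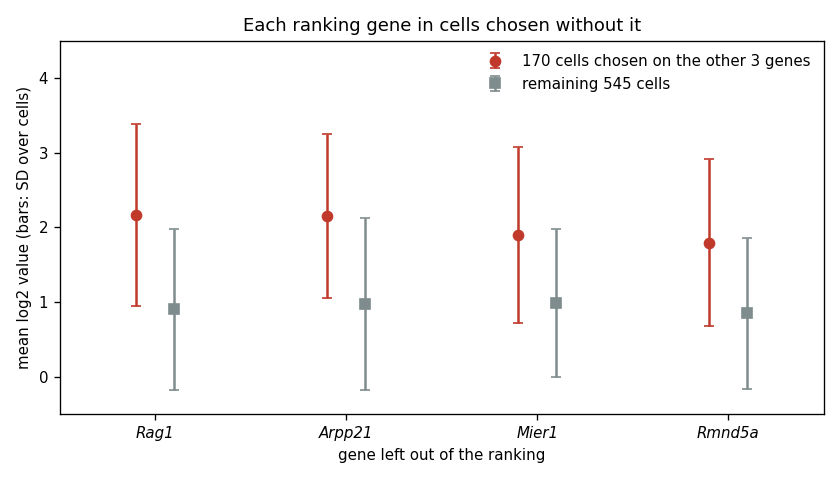
Mean log2 value of each ranking gene (points) with the SD over cells (bars) in 170 cells chosen on the other 3 genes and in the remaining 545 cells. Rag1 had a mean of 2.17 in cells chosen without it and 0.90 in the remaining cells.

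The cells were compared with 4 groups of the same library, all set by measured values. The first was the other 545 non-cycling Cd8b1 cells. Inside it lay 135 other Rag1-positive cells (Rag1 above 1 and Itm2a at 0) and 115 Itm2a-positive cells (Itm2a above 1 and Ccr7 at 0). The fourth was 579 cycling cells, with Mki67 and Top2a above 0 and Cd8b1 above 1. The late rearranging cells had a mean of 1331.8 ± 269.6 detected genes (SD over cells). This was close to the other non-cycling Cd8b1 cells, with a mean of 1325.1, the other Rag1-positive cells, with 1318.96, and the Itm2a-positive cells, with 1277.3, and far from the cycling cells, with 2610.0. Shares are therefore also given at an equal depth, for which the values of a cell were turned into whole steps by their order, as stand-ins for counts, and 1300 steps were drawn at random from every cell.

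Both coreceptor genes were seen in most of the cells. Cd8a, the partner chain of Cd8b1, was above 0 in 169 of 170 cells. Cd4 was above 0 in 113 cells, or 66.5% (58.8% to 73.5%), and both were above 0 in 112. The Cd4 level ran from 0 to 3.15, with a median of 0.97 and a mean of 1.03 ± 0.93 (SD). The mean was 0.88 in the other Rag1-positive cells, 0.49 in the Itm2a-positive cells and 0.51 in the cycling cells. At equal depth, Cd4 was seen in 53.5% of late rearranging cells and in 25.9% of cycling cells. A value of 0 in these data does not show that a cell lacked CD4. The name "late" comes from the label: nothing in the choice orders the cells in time.

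Marker genes of other cell types were low. All 4 B cell markers were at 0 in 147 of 170 cells, no cell had 2 of them, and their summed level had a highest value of 1.495. Of the 23 cells with a value, 20 had Cd79b and 3 had Cd79a. All 4 were at 0 in 86.5% of late rearranging cells, 85.2% of other Rag1-positive cells and 95.7% of Itm2a-positive cells. Whether these values came from other cells, free RNA or the cells themselves was not tested. DN markers were all at 0 in 134 cells, nonconventional lymphocyte markers in 153, myeloid markers in 135, epithelial markers in 137 and red cell markers in 165. Antigen-presenting cell markers were at 0 in 93 cells, but their summed level reached 19.3 in the highest cell, and 23 cells had 2 or more of them. Their part in the results was not tested.

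Of the recombination machinery, Rag2 was seen about as often as in the other Rag1-positive cells and more often than in the Itm2a-positive cells. Rag2, the second subunit of the recombinase, was above 0 in 64 of the 170 cells (37.6%, 30.3% to 45.4%), with a mean of 0.39 ± 0.59 (SD) and a highest value of 2.56. In the other Rag1-positive cells it was above 0 in 34.1% (26.1% to 42.7%), so the intervals overlapped, and in the Itm2a-positive cells in 13.0% (7.5% to 20.6%). Dntt, which encodes the TdT enzyme that adds bases at the cut ends, had a mean of 2.50 ± 1.21, against 2.30 ± 1.17 in the other Rag1-positive cells, 2.25 ± 0.86 in the cycling cells and 0.77 ± 1.04 in the Itm2a-positive cells. The cells with Dntt above 0 were 157 of 170 among the late rearranging cells and 55 of 115 among the Itm2a-positive cells.

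Among the end joining genes, 11 of 13 were measured and 4 were seen in at least 20% of cells of either group, the filter used for every comparison. Xrcc6, which encodes the Ku70 subunit that holds broken ends, had a mean of 1.15 ± 0.92 (SD), against 0.87 ± 0.90 in the other Rag1-positive cells and 0.22 ± 0.53 in the Itm2a-positive cells. Hmgb1, whose product bends DNA and assists RAG cutting, was 0.27 higher than in the other Rag1-positive cells and 1.15 higher than in the Itm2a-positive cells. Lig4, the ligase of the pathway, had means of 0.26, 0.24 and 0.08 in these 3 groups. Xrcc6 and Hmgb1 were the 2 genes of the list that differed by at least 0.25, the size used to call a difference, in both of these comparisons. Against the cycling cells none of the 4 was higher by that size, and Hmgb1 was lower, with 3.90 against 4.90. Over all genes, 2.12% were higher by that size than in the other Rag1-positive cells and 7.27% than in the Itm2a-positive cells, and 2.25% and 6.9% were lower. On the equal-depth scale of log2(steps + 1), the 49 higher and 52 lower genes of the first comparison became 18 and 14, and the 174 and 165 of the other became 93 and 84. These shares are the scale for this and every later list count in these comparisons. They are given as a scale only, since the choice of cells used the same values.

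**Figure D2:**
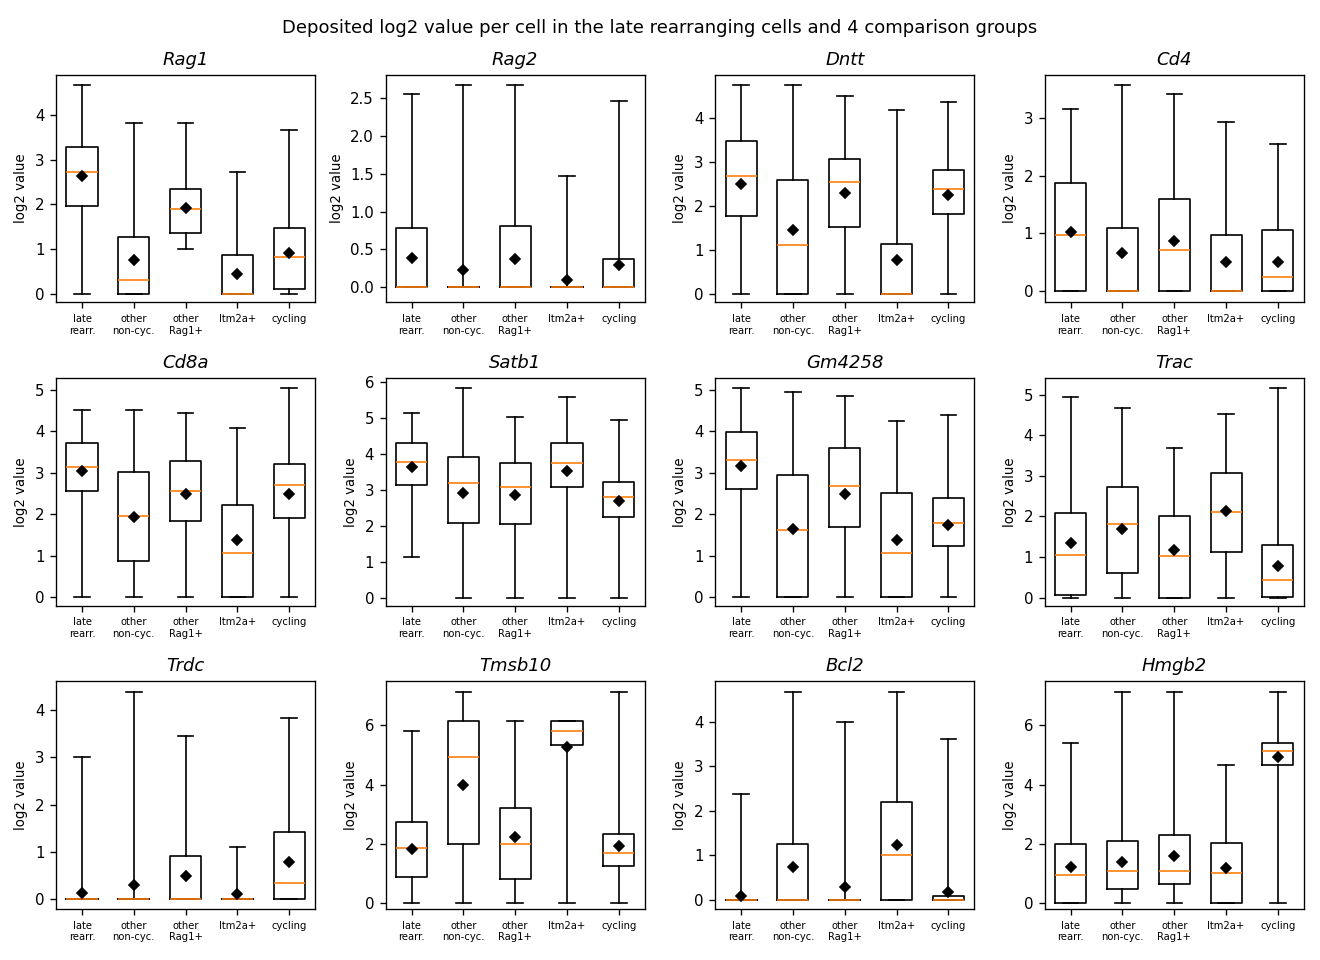
Log2 value per cell (y axis) of 12 genes in the late rearranging cells and the 4 comparison groups (x axis). Boxes span the quartiles with the median as a line, whiskers reach the lowest and highest cell and diamonds are means. Dntt means were 2.50 in the late rearranging cells and 0.77 in the Itm2a-positive cells, and the Trdc median was 0 in the first 4 groups.

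The TCR genes separated the α and δ constant regions. Trac, the constant gene of the α chain (chr14:54220521-54224206 on GRCm38), was above 0 in 127 of the 170 cells (74.7%, 67.5% to 81.0%), and its level ran from 0 to 4.94 with a median of 1.04. Its mean of 1.33 ± 1.12 (SD) lay between 0.78 ± 0.86 in the cycling cells and 2.13 ± 1.22 in the Itm2a-positive cells, with 1.18 ± 1.12 in the other Rag1-positive cells. Trdc (chr14:54142851-54148868) was above 0 in 21 cells (12.4%, 7.81% to 18.3%), against 36.3% (28.2% to 45.0%) of the other Rag1-positive cells and 13.0% (7.5% to 20.6%) of the Itm2a-positive cells. DN markers moved with this difference, with a mean summed level of 0.24 in the late rearranging cells and 0.42 in the other Rag1-positive cells, where 4 of 170 and 8 of 135 cells had 2 or more of them. Nonconventional lymphocyte markers had mean sums of 0.08, 0.29 and 0.79 in the late rearranging, other Rag1-positive and Itm2a-positive cells. The part of either list in the Trdc values was not tested.

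At equal depth, Trdc was seen in 7.65% of late rearranging cells, 28.9% of other Rag1-positive cells, 7.83% of Itm2a-positive cells and 29.4% of cycling cells. The late rearranging and Itm2a-positive cells were thus low and the other two groups high. How much of the signal in the 21 cells came from free RNA was not tested. Both constant genes were above 0 in 16 cells, and 38 cells had neither.

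The β chain was present throughout. No late rearranging cell had Trbc2 at 0, and Trbc1 was at 0 in 14. Trbc1 had a mean of 3.99 and was 0.36 higher than in the other Rag1-positive cells and 0.80 higher than in the Itm2a-positive cells. Ptcra, the surrogate α chain that pairs with the β chain before Tcra is rearranged, had means of 0.26, 0.23 and 0.04 in these groups. Of 9 compared TCR chain and CD3 genes, 1 was higher by at least 0.25 than in the other Rag1-positive cells, namely Trbc1, and 1 was lower, namely Trdc. Any of 16 measured Vα genes was above 0 in 12 late rearranging cells (7.06%, 3.70% to 12.0%) and in 16 Itm2a-positive cells (13.9%, 8.17% to 21.6%), with overlapping intervals. The other Rag1-positive cells had 7.41% (3.61% to 13.2%) and the other non-cycling Cd8b1 cells 12.8% (10.2% to 15.9%). In the cycling cells it was 18.3% (15.2% to 21.7%). At equal depth these 5 groups had, in the same order, 5.29%, 11.3%, 5.19%, 10.1% and 7.25%.

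The selection genes were low. Itm2a was above 0 in 20 cells and Cd69 in 4, and no cell had a value above 0 for both. A count of 0 of 170 cells allows, at 3 cells, a share of up to 1.76% of cells in which both are seen, and sets no limit on the cells that express both. The 24 cells with either gene made 14.1% (9.26% to 20.3%). Of 12 compared genes of the TCR signal response, 10 were lower by at least 0.25 than in the Itm2a-positive cells. Cd2, an adhesion receptor, had a mean of 0.34 against 1.60, and Cd28, a costimulatory receptor, 0.79 against 1.83. Tox, a nuclear factor needed for the CD4 lineage, had 0.20 against 0.91. Slamf6, a receptor of the SLAM family, differed in the other direction, with 0.64 against 0.36. Against the other Rag1-positive cells, none of 8 compared genes of this list differed by 0.25, and their median difference was -0.01.

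Some proximal TCR signaling genes were higher. Themis, an adaptor needed for selection, had a mean of 1.35, against 1.03 in the other Rag1-positive cells and 0.66 in the Itm2a-positive cells. Cbl, a ubiquitin ligase that limits TCR signals, had 0.99, 0.67 and 0.49. These were the 2 of 13 compared proximal signaling genes that were higher by at least 0.25 than in the other Rag1-positive cells. Against the Itm2a-positive cells 4 of 14 were higher, which were Lck, Lat, Themis and Cbl, and 2 were lower, Ptprc and Csk.

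Maturation genes held the lowest difference from the Itm2a-positive cells. Tmsb10, which encodes an actin-binding peptide, ran from 0 to 5.82 in the late rearranging cells with a median of 1.86, and from 0 to 6.14 in the Itm2a-positive cells with a median of 5.82. The means were 1.83 ± 1.302 (SD) and 5.26 ± 1.62, and the ranges overlapped. The difference of -3.43 was the lowest in that comparison. Of 10 compared maturation and egress genes, 8 were lower by at least 0.25 and none was higher, among them Cd52 at -1.50, Shisa5 at -1.18 and Gimap6 at -0.63. Against the other Rag1-positive cells 1 of 7 was lower by that size, Tmsb10 at -0.40, and this difference turned to 0.05 when only cells of like depth were compared.

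Of the survival genes, 1 was higher and 1 lower by at least 0.25 than in the Itm2a-positive cells, of 7 compared. Over all genes 7.27% were higher and 6.9% lower by that size, so 1 of 7 each way is no result about the list. Bcl2, which guards mature T cells, was above 0 in 17 of 170 cells (10.0%, 5.9% to 15.5%) and in 72 of 115 Itm2a-positive cells (62.6%, 53.1% to 71.5%). Bcl2l1, which encodes the Bcl-xL protein that keeps DP cells alive, was above 0 in 44.1% (36.5% to 51.9%) and 13.0% (7.5% to 20.6%) of these groups. In the other Rag1-positive cells the shares were 16.3% for Bcl2 and 33.3% for Bcl2l1, and none of 6 compared survival genes differed from them by 0.25.

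Transcription factors held the highest difference from the other Rag1-positive cells. Satb1, which organizes chromatin loops in thymocytes, was above 0 in all 170 late rearranging cells, with values from 1.15 to 5.15 and a median of 3.79. Its mean was 3.64 ± 0.83 (SD), against 2.86 ± 1.18 in the other Rag1-positive cells, and the difference of 0.78 was the highest of that comparison among genes not used to set the groups. In the Itm2a-positive cells the mean was 3.53 ± 1.12, a difference of 0.10.

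Another 3 of the 20 compared factors were higher by at least 0.25 than in the other Rag1-positive cells and none was lower. Bcl11b, which holds T cell identity, had a mean of 2.38 against 2.04, Tcf12, which encodes the E protein HEB, 1.15 against 0.86, and Sox4 1.37 against 1.06. Tcf3, which encodes the E protein E2A, had a mean of 0.32, against 0.26 in the other Rag1-positive cells and 0.16 in the Itm2a-positive cells. Lef1 and Id2 were lower than in the Itm2a-positive cells, by -0.97 and -0.62, among 7 factors lower and 6 higher of 21 compared.

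Gm4258, the non-coding gene that spans the miR-181a and miR-181b hairpins printed above, ran from 0 to 5.04 in the late rearranging cells with a median of 3.31. It was above 0 in 166 of 170 cells. Its mean of 3.16 ± 1.07 (SD) compared with 2.50 ± 1.29 in the other Rag1-positive cells, 1.38 ± 1.35 in the Itm2a-positive cells and 1.75 ± 0.92 in the cycling cells. Among genes not used in the choice, it had the highest difference against the other non-cycling Cd8b1 cells, at 1.50, and against the cycling cells, at 1.40. Whether reads of the gene come from the miRNA precursor was not tested.

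Of 9 compared surface and stage genes of DP cells, 4 were higher by at least 0.25 than in the Itm2a-positive cells and 1 was lower. The lower one was Cd53, which encodes a tetraspanin, with a mean of 0.07 against 1.18. Ly6d, a lipid-anchored surface protein, had a mean of 3.19 against 2.96 in the other Rag1-positive cells and 0.80 in the Itm2a-positive cells. Endou, a ribonuclease gene, had 2.12, 1.56 and 0.44. Aqp11, a water channel gene, had 1.54, 1.41 and 0.35. Ccr9, the receptor for the thymic chemokine CCL25, had 2.01, 1.49 and 2.01, so that like Satb1 it was as high in the Itm2a-positive cells. Of 7 compared genes of the list 3 were higher by at least 0.25 than in the other Rag1-positive cells, which were Endou, Ccr9 and Thy1.

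Of 2313 genes compared, 52, or 2.25%, were lower by at least 0.25 than in the other Rag1-positive cells. With cells ranked without Rag1 there were 29, and on the equal-depth scale of log2(steps + 1) there were 14. The lowest of the 52 were Eef1g, a translation elongation factor gene, at -0.55, Npm1, a nucleolar protein gene, at -0.52, and Wdr89 at -0.49. Next came B2m, which encodes the light chain of MHC class I, at -0.48. Psmb1, a proteasome subunit gene, differed by -0.46 and Atp5j, an ATP synthase subunit gene, by -0.44. All 12 compared nuclear genes of the cytochrome c oxidase list had a lower mean, from -0.31 to -0.02 with a median of -0.20 against 0 over all genes, but only Cox5a and Cox6c passed 0.25. Of the subunit genes of this enzyme in the mitochondrial genome, the differences were 0.14 for mt-Co1, -0.01 for mt-Co2 and -0.02 for mt-Co3, and the 2 lists were not compared. In the glycolysis list 1 of 5 genes was lower by that size, and in the list of the mitochondrial genome 1 of 11. With 2.25% of all genes lower by that size, 1 gene can be read neither for nor against a change of a list. Of 15 compared proliferation genes 4 were lower by at least 0.25, which were Hmgb2 at -0.37, Hmgn2 at -0.36, Ran at -0.35 and Stmn1 at -0.33, and none was higher. Among MHC class I presentation genes 3 of 10 were lower, B2m, H2-D1 and Psme1, with B2m at 1.34 against 1.83.

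**Figure D3:**
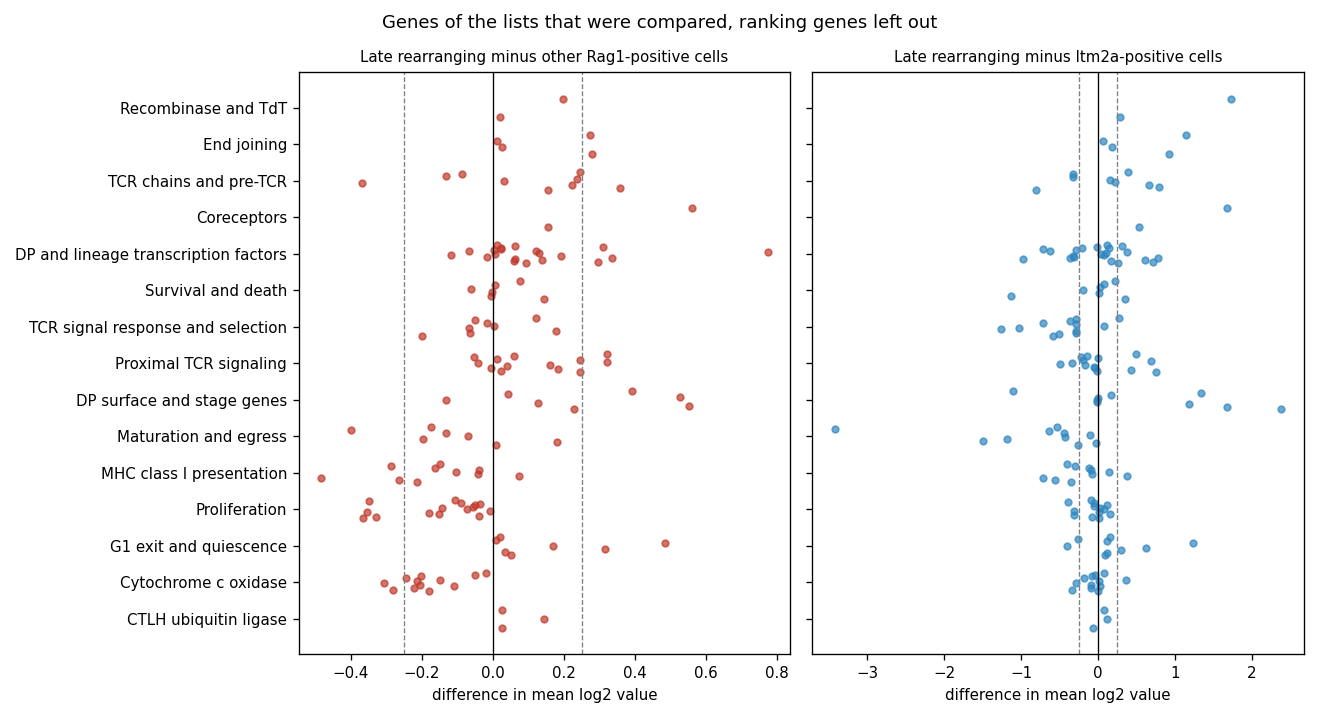
Difference in mean log2 value (x axis) of each compared gene in 15 gene lists (y axis) for late rearranging minus other Rag1-positive cells (left) and minus Itm2a-positive cells (right), on different x scales. Points are genes and dashed lines mark 0.25 in either direction. Satb1 lies at 0.78 on the left, and all 12 cytochrome c oxidase genes lie below 0 there.

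Among the genes of G1 exit and quiescence, Ccnd3 and Btg1 were higher by at least 0.25 than in the other Rag1-positive cells, of 7 compared. Ccnd3, the cyclin D of DP cells, had a mean of 2.64, against 2.15 in the other Rag1-positive cells, 1.39 in the Itm2a-positive cells and 2.62 in the cycling cells. Ccnd2 was low, with 0.08 against 0.32 and 0.48 in the first 2 of these groups. Btg1, an antiproliferative gene, had 2.79 against 2.47, 2.49 and 1.49. Against the cycling cells 766 of 4603 compared genes, or 16.6%, were lower by at least 0.25 and 122, or 2.65%, were higher. The lowest were Hist1h2ap at -4.06, Hmgb2 at -3.74 and H2afz at -2.98, all used in dividing cells. With cycling cells of like depth, of which there were 32, the 766 became 262, and on the equal-depth scale of log2(steps + 1) 182, and Tmsb4x, higher by 0.83, became -0.08. Ccr9 and Satb1 were higher than in the cycling cells by 1.21 and 0.93.

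Partners of the ranking genes were few among the compared genes. None of the 3 other compared CTLH subunit genes (Wdr26, Mkln1 and Ypel5) differed from the other Rag1-positive cells by 0.25, the highest being Mkln1 at 0.14. Neither did Hdac1 and Hdac2, whose products are partners of MIER1, with differences of -0.02 and 0.02. So few genes can be read neither for nor against a change, since 2.12% and 2.25% of all compared genes were higher and lower by that size. Against the cycling cells Hdac1 was lower, with 0.40 against 0.69, and so was Hdac2, with 0.32 against 0.57. Over all genes, 16.6% were lower by at least 0.25 in that comparison, and the cycling cells had more detected genes. At equal depth Hdac1 was seen in 25.9% of late rearranging cells (19.5% to 33.1%) and 26.6% of cycling cells (23.0% to 30.4%). For Hdac2 the shares were 19.4% (13.8% to 26.2%) and 24.2% (20.7% to 27.9%), so both pairs of intervals overlapped. Of 12 compared genes of RNA decay and RNA binding, Btg1 alone passed, at 0.32.

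Against all other non-cycling Cd8b1 cells, the whole from which the cells were ranked, 115 of 2305 compared genes (4.99%) were higher by at least 0.25 and 107 (4.64%) were lower. At equal depth these became 55 and 36, on a scale of log2(steps + 1). In 5 stretches of the rank, Tmsb10 had means of 1.54, 2.12, 2.04, 4.09 and 5.51, and Bcl2 of 0.11, 0.09, 0.19, 0.67 and 1.26. Both were low in the first 3 stretches, down to rank 340, and high after it. Dntt was 2.59, 2.41 and 2.53 in those 3 stretches and then 1.45 and 0.58. Trdc was highest in the stretch from rank 171 to 340, just outside the late rearranging cells, with 0.15, 0.10, 0.49, 0.32 and 0.15. Satb1 went from 3.75 to 2.70 over the 5 stretches and Cd8a from 3.13 to 1.29. The boundary at 170 cells thus lay within a span where Dntt and Bcl2 hardly differed, and where Trdc did.

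**Figure D4:**
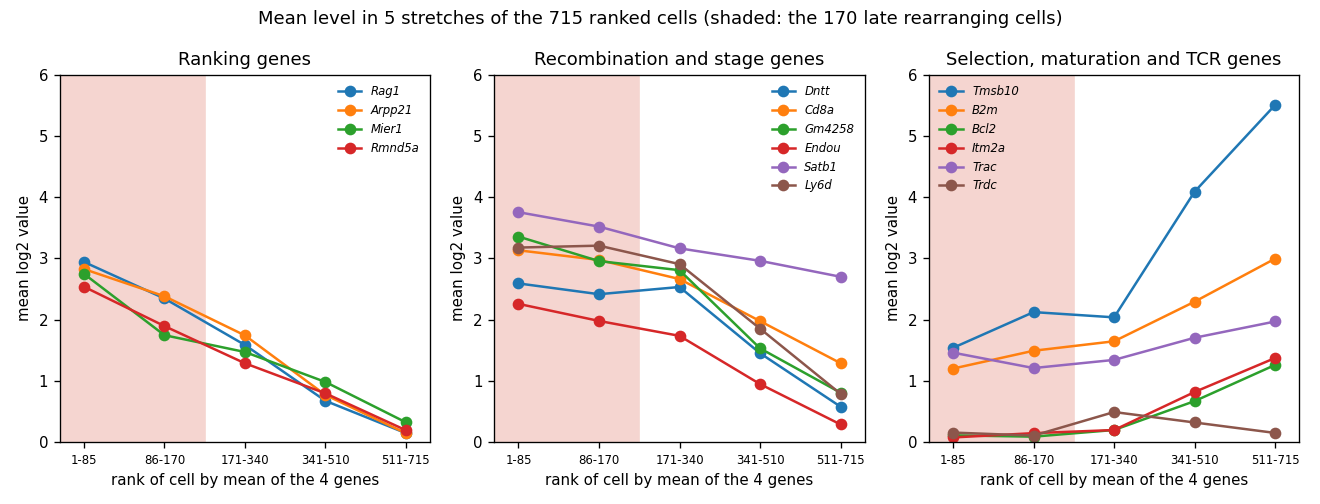
Mean log2 value (y axis) in 5 stretches of the 715 ranked cells (x axis, highest ranking cells on the left), for the 4 ranking genes and 12 further genes chosen after their values were seen. The shaded area holds the 170 late rearranging cells, and Tmsb10 goes from 1.54 in the first stretch to 5.51 in the last.

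The late rearranging cells lay near each other when the 4 ranking genes were left out. In 20 principal components, 36.6% of their 10 nearest neighbors were late rearranging cells, which made up 8.53% of the library and 23.8% of the 715 cells. Other Rag1-positive cells made 19.0% of the neighbors, Itm2a-positive cells 2.12% and cycling cells 1.65%. Of the neighbors of other Rag1-positive cells 20.7% were late rearranging cells, and of those of Itm2a-positive cells 3.57%. The components were built from genes that vary with the ranking genes, so these shares are a description.

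The scATAC-seq cells were sorted on the proteins and had no part in the choice. Counts in peaks at the gene starts were summed over 182 DN, 125 DP, 119 CD4 and 116 CD8 cells and are given per 10000 counts in all peaks of the sort, with exact Poisson intervals. In such sums, fewer open cells and less signal per cell cannot be told apart. The DP sort holds all DP stages, not only the cells described above. At the Rag1 start (chr2:101647603-101651602) the DP sort had 0.836 (0.598 to 1.14), from 40 counts in 32 of the 125 cells. The DN sort had 0.198 (0.124 to 0.300) and the CD8 sort 0.384 (0.231 to 0.600). No count was found in the CD4 sort, where 3 counts would be 0.0538, and the DP value was 15.6 times that floor. The DP value was 4.63 times that of the CD4 and CD8 sorts together (2.62 to 8.47). Against the CD8 sort alone, a comparison added after seeing that the CD4 sort had no count, it was 2.18 times (1.23 to 3.98), and the intervals of the levels in DP and CD8 just overlapped.

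Rag2, the neighbor of Rag1 on the opposite strand (chr2:101622761-101626760), had the same order. The DP sort had 0.565 (0.372 to 0.821), the CD8 sort 0.263 (0.140 to 0.449), the DN sort 0.0902 (0.0433 to 0.166) and the CD4 sort no count. The DP value was 4.57 times (2.28 to 9.65) that of the CD4 and CD8 sorts together. Against the CD8 sort alone it was 2.15 times (1.07 to 4.53), and the intervals of the levels overlapped. With peaks within 10 kb of the start it was 1.96 times that of both sorts (1.18 to 3.24), and 1.27 times (0.735 to 2.22) that of the CD8 sort, and the CD4 sort then had 10 counts.

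At Arpp21, 3 starts with peaks were counted together. The DP sort had 0.523 (0.338 to 0.772), the DN sort 0.379 (0.273 to 0.512), the CD8 sort 0.303 (0.170 to 0.500) and the CD4 sort 0.179 (0.0859 to 0.330). Most counts lay in the peak over the internal promoter printed above (chr9:112215420-112219419), with 20 of 25 in DP, 36 of 42 in DN, 13 of 15 in CD8 and 4 of 10 in CD4. The peaks at the other 2 starts held between 0 and 4 counts in each sort. The DP value over the 3 starts was 2.20 times (1.21 to 3.99) that of the CD4 and CD8 sorts together. It was 1.85 times (0.928 to 3.64) in cells with label numbers under 30000, an interval that spans equality, and 1.95 times with peaks within 10 kb. The DP and DN intervals overlapped, as did those of DP and CD8, with a ratio of 1.72 (0.874 to 3.52) to the CD8 sort alone.

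At Mier1, 2 starts gave 0.439 (0.272 to 0.671) in the DP sort against 0.162 (0.0962 to 0.257) in DN, 0.125 (0.0504 to 0.258) in CD4 and 0.142 (0.0569 to 0.292) in CD8. The ratio of DP to the CD4 and CD8 sorts was 3.30 (1.60 to 7.02). To the CD8 sort alone it was 3.10 (1.27 to 8.64), from 21 and 7 counts, and the intervals of the levels overlapped. The intervals for Rmnd5a overlapped across the sorts, with 0.941 (0.686 to 1.26) in DP, 0.974 (0.799 to 1.18) in DN, 0.699 (0.497 to 0.955) in CD4 and 0.930 (0.681 to 1.24) in CD8, and a ratio of 1.17 (0.793 to 1.69). The start of Gm4258 had a ratio of 0.784 (0.481 to 1.24), an interval that spans equality. The CD8 sort had the highest value there, 0.890 (0.646 to 1.19) against 0.544 (0.355 to 0.797) in DP. To the CD8 sort alone the ratio was 0.611 (0.361 to 1.01), and with peaks within 10 kb it was 0.582 (0.349 to 0.951). Of 41927 peaks with at least 10 counts in these sorts, 46.0% were higher in DP and 15.2% were over 2 times higher.

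**Figure D5:**
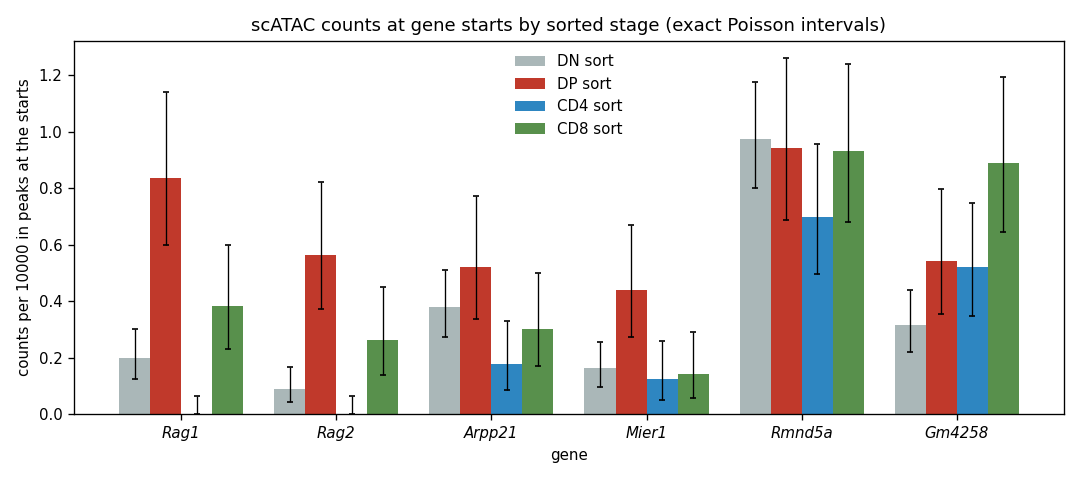
Counts per 10000 (y axis) in peaks at the starts of 6 genes (x axis) in the DN, DP, CD4 and CD8 sorts. Bars are summed counts and whiskers exact Poisson 95% intervals, and the DP bar at Rag1 stands at 0.836 while the CD4 sort had no count there.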

How the data were processed

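Thymocytes were profiled in 1 scRNA-seq library of 1993 cells and 8846 genes and in scATAC-seq cells. The deposited scRNA-seq values are log2 values: the authors ran Cell Ranger 1.3.1, filtered cells and genes and quantile-normalized across cells, so depth in molecules is unknown and differences of log2 values are compressed. The deposited scATAC-seq values are counts per peak and cell on GRCm38, a build set by 26.0% of peak centres lying within 2000 bases of annotated starts, against 7.72% after a shift of 100000 bases. Doublets were not called.

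The cells, gene lists and comparison groups were chosen with earlier results of these data known, and Gm4258 in scATAC-seq and the stretches of the rank after their values were seen. Named genes were the 12 highest and 12 lowest per comparison, without genes that set its groups, and list genes above 0 in at least 5% of cells. Shown are some of them. Genes above 0 in at least 20% of cells of either group were compared, and called at a difference of at least 0.25. Per gene, peaks with a centre within 2000 bases of a start were taken, nearest first and without overlap, since neighboring peaks share reads. Counts per sort totalled 478264 to 1108749. In all, 1446 scATAC-seq columns of total thymocytes or of no stated group were not used. Promoter and miRNA sequences are from RefSeq (GRCm38.p6) and gene spans from GENCODE. Analyses used Python 3.11.15, pandas 2.3.3, scipy 1.17.1 and scikit-learn 1.9.0. Alternatives were other rankings, cell numbers, scales, depths, filters, neighbor settings and peak windows.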

Additional observations from a re-analysis of the deposited data

How the results depend on the processing

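Of 138 gene differences of at least 0.25, between 119 (on the thinned scale) and 138 stayed past it in the same direction under each alternative. These were taken from the 12 highest and 12 lowest genes per comparison and from genes picked by name, not from all genes called. Most counts over all genes, given below, fell further on the thinned scale. Turned in sign were 2, both with comparison cells of like depth: Tmsb10 against the other Rag1-positive cells (0.0489) and Tmsb4x against the cycling cells (-0.0786). Of 121 values of the main results, 108 stayed within 1.5 times or within their interval. Some of this was fixed in advance. Peaks within 1 kb were the same peaks as in the main setting, and dropping the filter on the share of cells cannot change a difference. Leaving out the 5% of cells with most genes kept all 170 late rearranging cells. On a scale of log2(thinned steps + 1), which is compressed further, the counts of genes past 0.25 were 55 higher and 36 lower against the other non-cycling Cd8b1 cells, 18 and 14 against the other Rag1-positive cells, 93 and 84 against the Itm2a-positive cells, and 182 lower against the cycling cells. With cells ranked without Rag1, 29 genes were lower than in the other Rag1-positive cells, and with like depth 262 were lower than in the cycling cells. With peaks within 10 kb, the Rag2 ratio of the DP sort to the CD4 and CD8 sorts was 1.96. Against the CD8 sort alone, added after seeing the data, the Rag1 ratio was 2.18 and the Rag2 ratio 2.15, since the CD4 sort had no count there. With cell label numbers from 30000, the Arpp21 ratio was 4.47 from few counts, against 1.85 below 30000, and Rag1 and Rag2 gave no ratio, since the CD4 and CD8 sorts had no count. Where no cause is given, the cause was not tested. The shares of Rag2, Cd4, Trac, Trdc, Itm2a and Cd69 above 1 lay below the intervals of their shares above 0. No paired analysis was possible because the scRNA-seq library is 1 sample and the sorted cells were numbered in accession order, which pairs none of them. The limits are 1 library, a choice of cells made on the values described, and few scATAC-seq counts per gene.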
